A study of Mus musculus with 34 samples.

Results

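Brain was measured on 2 of the 34 mouse arrays of the study, labelled brain replicates 1 and 2, and was compared with the 14 arrays of the other adult tissues, which are spleen, pancreas, muscle, lung, liver, kidney and colon with 2 arrays each. The arrays were chosen by their labels alone. The mouse DNA came from C57Bl/6 animals, the labels give an age of 3 months for all adult arrays, and neither names a transgene, a deletion or a treatment. Brain replicate 1 came from a female and brain replicate 2 from a male, and the 14 other arrays comprise 6 from females and 8 from males. The labels give the tissue as brain with no region, so each value averages over neurons, glia, vessel cells and blood. The brain arrays came from different animals, since their sexes differ. For colon, lung and pancreas the labels do not say whether the 2 arrays came from separate animals, and p-values measure the spread between arrays, which may be technical in part. The other 18 arrays of the study, among them embryos, ES cells and cell lines, entered the comparison in 1 alternative fit.

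Methylation was measured by mDIP, in which DNA is sheared, made single-stranded and pulled down with an antibody against 5-methylcytidine. The bound fraction, labelled with Cy5, is hybridised against the input fraction of the same sample, labelled with Cy3, on an Agilent array whose probes lie in and around CpG islands. The log ratio of bound over input was turned into a Z-score over all probes of an array, and the mean Z-score of the probes of an island is its island methylation score. A score of 0 is thus the average probe of that array, and the study calls an island methylated above 0.75 and unmethylated below 0. Its scores take the melting temperature of the probes into account and those used here do not. The terms methylated and unmethylated thus borrow the limits of the study for a like but not identical score. On the autosomes 13279 islands were scored, with a median length of 657 bases and 3 to 40 probes each. Positions are those of the array files, which name no genome build.

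CpG islands are stretches rich in the dinucleotide CpG that cover the promoters of most housekeeping genes and of many genes of development. Most of them stay free of methylation in every tissue, while a smaller number, often inside genes or at genes of the germ line, carry methylation that is copied at each cell division by the enzyme Dnmt1. At imprinted genes the copy inherited from one parent is methylated and the other is not. Neurons are long-lived cells that express the de novo methyltransferase Dnmt3a at high levels, and brain is the tissue in which many genes of synapses and ion channels are used.

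The sequences of promoters are shown for a pair of islands to which the results return, since CpG sites are what the antibody can capture there. Igf2r encodes the receptor that removes the growth factor Igf2, and in most mouse tissues it is transcribed from the maternal copy while the promoter of the silent paternal copy is methylated. Its promoter is one on which brain replicate 2 departed from brain replicate 1. Ldhb encodes the B subunit of lactate dehydrogenase, and its promoter is one on which both brain arrays lay above all others. Both are printed from 250 bases before to 50 bases after the start of the gene, from RefSeq on GRCm38.p6, with each CpG in capitals.
Igf2r (chr17:12769657-12769956, minus strand): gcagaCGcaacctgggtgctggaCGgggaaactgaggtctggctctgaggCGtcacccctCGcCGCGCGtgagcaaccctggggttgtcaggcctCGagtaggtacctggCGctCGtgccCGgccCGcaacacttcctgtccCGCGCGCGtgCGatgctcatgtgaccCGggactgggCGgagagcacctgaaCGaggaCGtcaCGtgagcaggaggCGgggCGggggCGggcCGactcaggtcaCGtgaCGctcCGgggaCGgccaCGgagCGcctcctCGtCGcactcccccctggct
Ldhb (chr6:142507908-142508207, minus strand): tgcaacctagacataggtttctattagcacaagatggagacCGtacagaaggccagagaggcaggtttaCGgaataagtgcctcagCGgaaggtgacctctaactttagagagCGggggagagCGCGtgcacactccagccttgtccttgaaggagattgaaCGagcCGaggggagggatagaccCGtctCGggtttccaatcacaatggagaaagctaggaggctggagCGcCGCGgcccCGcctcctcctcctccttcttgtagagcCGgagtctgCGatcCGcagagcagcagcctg
The Igf2r promoter holds 34 CpG sites with a G and C content of 70.7%, and the Ldhb promoter holds 17 with 57.3%. Of 32851 promoters of the same length, 7.73% have at least 34 CpG sites and 31.4% have at least 17, and the median is 7. The array files place 3 probes in each of these windows by their distance from the gene start. Over the Igf2r window the mean Z-score was 2.75 on brain replicate 1, 1.11 on brain replicate 2 and 0.67 on liver replicate 1, and it ran from 2.43 to 3.86 on the 13 remaining adult arrays. Over the Ldhb window it was 0.40 on brain replicate 1 and 0.31 on brain replicate 2. The value was -0.41 on liver replicate 1 and ran from -0.82 to 0.09 on the 13 remaining arrays.

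Before the results it has to be said that the arrays labelled brain did not resemble each other in the way that arrays of colon and pancreas did. For each island the mean of the 8 tissue means was subtracted from every array, and these deviations were correlated across the 1500 islands that varied most. The islands share the arrays and the probe design and are not independent, and an array enters the mean it is compared with, which pulls unrelated arrays slightly below 0. Across islands Pearson's r was -0.28 between brain replicates 1 and 2, against 0.86 between the colon arrays and 0.55 between the pancreas arrays. Over all 13279 islands it was -0.22 for brain. The array nearest to brain replicate 1 was liver replicate 2 with r of 0.46, and the array nearest to brain replicate 2 was liver replicate 1 with r of 0.49. Among the 15 possible partners the other brain array ranked 12 for brain replicate 1 and 14 for brain replicate 2. On the authors' deposited table the same correlations were -0.19 between the brain arrays, 0.77 between brain replicate 1 and liver replicate 2 and 0.52 between brain replicate 2 and liver replicate 1.

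**Figure D1:**
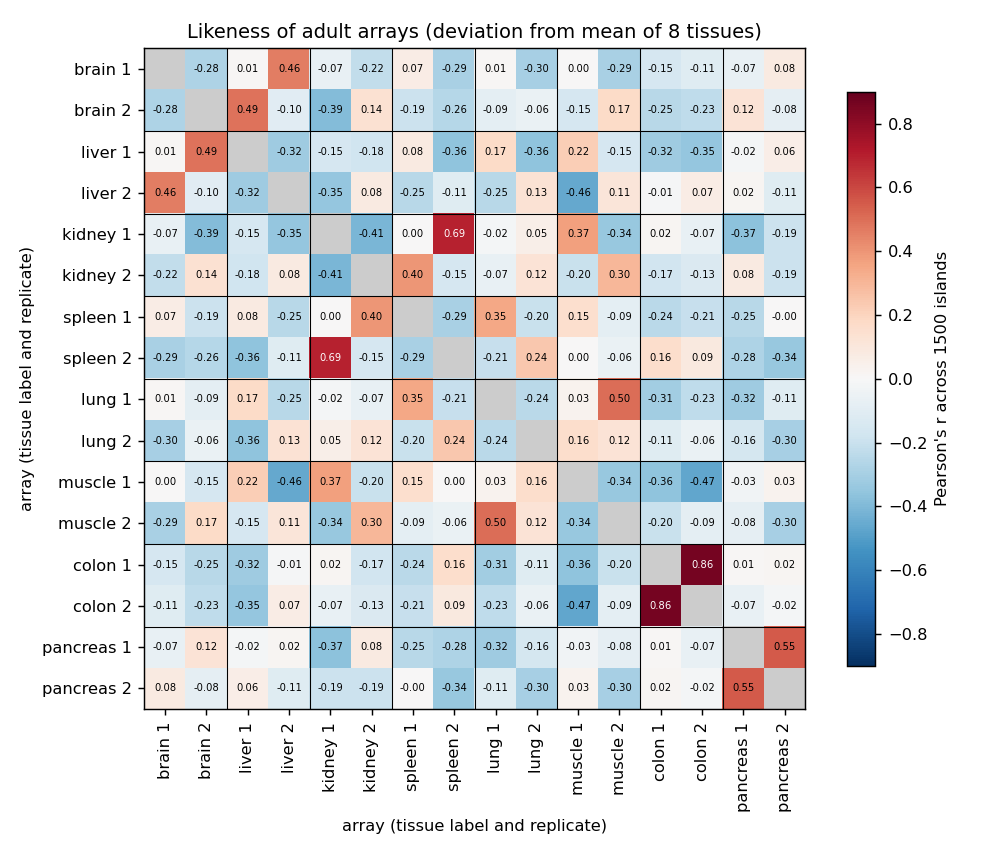
Each cell gives Pearson's r across 1500 islands between the deviations of a pair of adult arrays from the mean of 8 tissues, with both axes listing the arrays by tissue label and replicate, and the colour running from blue (below 0) to red (above 0). The colon arrays (0.86) and the pancreas arrays (0.55) are nearest to each other, whereas brain 1 is nearest to liver 2 (0.46) and brain 2 to liver 1 (0.49).

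Brain replicate 1 and liver replicate 1 lie on the same slide and were scanned on the same day. The arrays of kidney and spleen, and those of lung and muscle, also share slides on that day. There too arrays of the same label had r below 0, from -0.41 for kidney to -0.24 for lung. Between kidney replicate 1 and spleen replicate 2 r was 0.69, and between kidney replicate 2 and spleen replicate 1 it was 0.40. It was 0.50 between lung replicate 1 and muscle replicate 2, but 0.16 between lung replicate 2 and muscle replicate 1 (0.72 on the deposited table). The array nearest to lung replicate 2 was spleen replicate 2 with r of 0.24. Whether samples of these 3 slides were exchanged in the labels was not tested, and if they were, the array labelled brain replicate 1 would not hold brain and the values given for brain would change. The sex labels of the brain arrays fit their X-linked islands. Over 378 islands of the X chromosome, which are methylated on the inactive X of females, the median score was 1.37 on brain replicate 1 and 0.11 on brain replicate 2, against 0.87 to 2.00 over the 7 female arrays and -0.05 to 0.11 over the 9 male arrays. Since both samples of each of these 3 slides are labelled female, sex cannot tell them apart. Groups follow the labels throughout, no array was moved, and the results are given both with and without brain replicate 1 and its slide. Brain replicate 2 lies on another slide, was scanned on another day with kidney replicate 2 and spleen replicate 2, and used a smaller grid of 88737 probes, against 97651 for brain replicate 1, so that sex, slide, scan day and grid cannot be told apart between the brain arrays. The median input signal was 3.29 and 4.81 times its background on the brain arrays and 3.07 to 6.98 times on the other adult arrays.

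**Figure D2:**
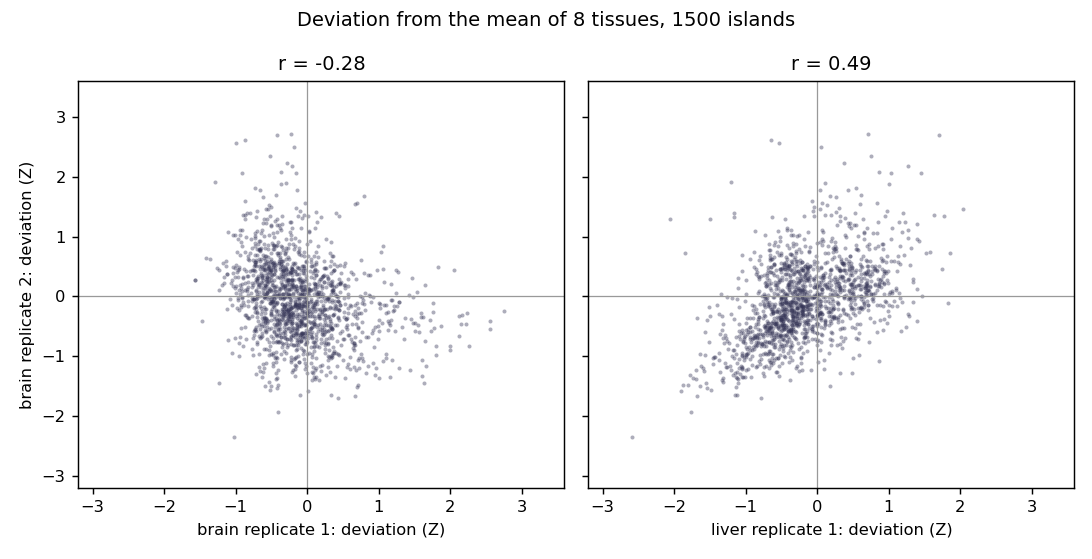
Each point is 1 of 1500 islands, plotted by its deviation from the mean of 8 tissues in units of Z on brain replicate 2 (vertical axis) against brain replicate 1 (left) or liver replicate 1 (right). The cloud falls from upper left to lower right between the brain arrays (r = -0.28) and rises between brain replicate 2 and liver replicate 1 (r = 0.49).

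With all labels as given, no island was called different between brain and the other tissues in the fit of the 16 adult arrays. In a linear model with 1 mean per tissue (limma), brain was tested against the mean of the 7 other tissue means, and 0 of 13279 islands (0.00%) had a Benjamini-Hochberg adjusted p under 0.05. At an unadjusted p under 0.05 there were 566 islands (4.26%), of which 221 were higher (1.66%) and 345 lower (2.60%) in brain. The methods' t-test gave 0 after adjustment and 649 without it, and limma on 2 groups gave 0 and 621. The same contrast for each other tissue gave 107 islands for colon, 8 for pancreas and 0 for kidney, liver, lung, muscle and spleen. On simulated data with the arrays of this comparison, differences of 1 in Z-score were recovered at 76.5% and differences of 2 at 95.5% of the 200 changed islands. The simulation shifted both brain arrays alike, with independent noise and no effect of slide, scan day or exchanged labels. It therefore cannot show what would be found where the brain arrays are as unlike each other as here. The scores of the brain arrays correlated at r of 0.842 across islands, but they differed by more than 1 at 584 islands (4.40%), against 13 for colon and 117 for pancreas.

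**Figure D3:**
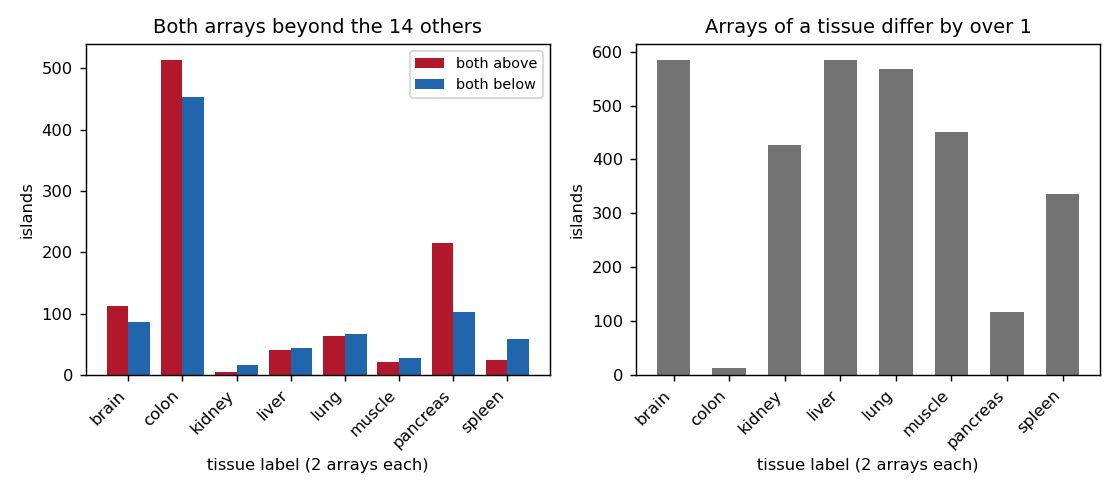
For each tissue label with 2 arrays, the left bars count the islands on which both arrays lie above (red) or below (blue) the 14 other adult arrays, and the right bars count the islands on which the 2 arrays differ by over 1 in score. Brain has 112 islands above, 87 below and 584 that differ, and colon has 514, 453 and 13.

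When all 34 arrays shared the estimate of the spread, 1 island (0.00753%) was called, and it was higher in brain. It lies inside Phospho1, a phosphatase gene known for its part in bone mineralisation, on chromosome 11 from 95646478 to 95647506. Its score was 2.11 on brain replicate 1 and 2.99 on brain replicate 2. Over the 14 other adult arrays the lowest score was -0.14, the median 1.43 and the highest 2.05. Both brain arrays were thus above every other adult array, of which the pancreas arrays were lowest with -0.14 and 0.01 and liver replicate 1 with 2.05, lung replicate 1 with 2.01 and liver replicate 2 with 1.97 were next to brain. The difference of 1.26 ± 0.22 (SE) had a limma adjusted p of 0.48 on the adult arrays and 0.0464 on all 34. On the arrays of embryos the score ran from -0.75 to -0.13.

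Both brain arrays lay above all 14 others at 112 islands (0.843%) and below them at 87 islands (0.655%). These counts involve no test and turn with the scaling, to 26 above and 154 below with log2 ratios centred on the median, 49 and 132 with the authors' deposited scores and 1353 and 217 with normexp. As reported, the corresponding counts were 514 and 453 for colon, 215 and 103 for pancreas, and 5 to 67 for the other tissues. Most of the differences were small: the median was 0.29 at the islands above and -0.47 at the islands below. Of the 112 islands above, 52 had scores below 0 on both brain arrays, and Phospho1 was the 1 island with both brain arrays above 0.75. Of the 87 islands below, 29 had both brain arrays above 0.75 and 51 had both below 0. No island was above 0.75 on both brain arrays and below 0 on the 14 others, or the reverse. The rule set for naming islands asked for a limma call as well and named none, so the islands named here and below were chosen after their values were seen.

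Among the islands above, 9 had a difference of at least 0.5, and none of them is in the neuronal and synaptic list. Slc12a5 encodes the potassium chloride cotransporter that keeps chloride low in mature neurons, and its island lies 29258 bases and more downstream of the gene start. The score was 0.21 on brain replicate 1 and 1.30 on brain replicate 2, and on the 14 other arrays it ran from -0.34 to 0.05 with a median of -0.19. The difference was 0.95 ± 0.20 (limma, adjusted p = 0.574). Both brain arrays were the highest of 16, but only replicate 2 reached the range of methylated islands. Prdm13, a transcription factor of the developing neural tube, had 0.15 and 0.80 in brain against -0.34 to 0.14 elsewhere, at an island upstream of the gene, and on the deposited scores its difference turned to -0.05. Adgrb2, an adhesion receptor of the brain, had 0.11 and 0.56 against -0.67 to 0.01.

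The Ldhb promoter island, whose sequence is printed above, had 0.40 and 0.31 on the brain arrays. Elsewhere it ran from -0.82 on spleen replicate 1 to 0.09 on pancreas replicate 2, with a median of -0.29. Here the brain arrays were close to each other and apart from the rest, by 0.62 ± 0.16, with a limma adjusted p of 1. The remaining islands with a difference of at least 0.5 belong to the mitochondrial ribosomal protein gene Mrpl46 (0.53 and 0.60 against -0.47 to 0.17), the DNA repair gene Fanca (0.04 and 0.05 against -0.98 to 0.01), the histone gene H2bc18 (0.51 and -0.10 against -1.35 to -0.17) and the centrosomal gene Cspp1 (0.14 and -0.10 against -1.14 to -0.22). For none of these did the brain arrays pass 0.75.

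Of the islands below, 40 had a difference of -0.5 or less, and most of those described were methylated on the other arrays and less so on the brain arrays. Dysf, which encodes the membrane repair protein dysferlin of muscle, had the difference farthest from 0. Its island inside the gene had scores of 1.94 and 1.82 on the brain arrays, and elsewhere the lowest was 2.19, the median 2.77 and the highest 3.58. The difference was -0.94 ± 0.28 (limma, adjusted p = 1). Srrm4, a splicing regulator of neurons, had 0.75 and 0.57 against 1.02 to 1.69. Nat8l, the enzyme that makes N-acetylaspartate in neurons, had 1.24 and 0.84 against 1.27 to 2.17. Plch2, a phospholipase C gene, had 1.17 and 0.97 against 1.44 to 2.36, a difference of -0.69 ± 0.11 with a limma adjusted p of 0.48.

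Tnfrsf13b, a receptor of B cells, had 0.67 and 0.01 in brain against 0.72 to 2.59, and Nfatc4, a transcription factor that responds to calcium signals, had 1.40 and 1.54 against 1.62 to 2.75. Rab15, a GTPase of recycling endosomes, was unmethylated on the brain arrays (-0.66 and -0.82) and ran from -0.52 to 0.51 elsewhere. Liver replicate 1 was the next array above the brain arrays at Tnfrsf13b, Nat8l, Arhgef40, Rab15, Pabpn1l, Plch2 and Srrm4. Leaving out any array of another tissue can only raise the count of islands beyond all others. Without liver replicate 1 the count below went from 87 to 141, and the count above from 112 to 152. Without any other single array of another tissue they ran from 89 to 108 below and from 115 to 143 above.

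Without the array labelled brain replicate 1, brain rested on replicate 2 alone, which was assumed to vary like the other tissues. Then limma called 21 islands (0.158%), all of them higher in brain, and 803 (6.05%) passed an unadjusted p under 0.05. Without brain replicate 2 it called 0, and 696 passed an unadjusted p under 0.05. When the slide that holds brain replicate 1 and liver replicate 1 was left out, a setting chosen after the data were seen, 48 islands (0.361%) were called, 36 higher (0.271%) and 12 lower (0.0904%), from 14 arrays with 6 residual degrees of freedom. The split moved with the scaling, to 22 higher and 1 lower with log2 ratios centred on the median, 11 higher and 32 lower with normexp background correction, and 25 higher and 42 lower with the authors' deposited scores. All of the 21 were among the 48. When the whole scan day of brain replicate 1 was left out, 370 islands (2.79%) were called, 160 higher (1.20%) and 210 lower (1.58%), and all of the 48 were among them. In that fit 10 arrays were left and the spread came from colon and pancreas alone, with 2 residual degrees of freedom. Without the scan day of brain replicate 2 there were 0 calls and 607 islands at an unadjusted p under 0.05.

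The 36 islands higher without the slide were mostly unmethylated islands that brain replicate 2 showed as methylated. Their median score was 1.37 on brain replicate 2, -0.19 on brain replicate 1 and -0.21 on the 13 adult arrays other than brain and liver replicate 1. On liver replicate 1, which was not in that fit, the median was 0.39, and at 20 of the 36 islands it lay above all 13 others. Brain replicate 1 was within the range of the 14 other arrays at 28 of the 36. The 12 islands lower without the slide gave the mirror image, with medians of 0.44 on brain replicate 2, 0.39 on liver replicate 1, 2.11 on brain replicate 1 and 2.20 on the 13 others. Liver replicate 1 lay below all 13 others at 11 of the 12. The part that slide, scan day or labels have in this was not tested, and the calls that follow describe the array labelled brain replicate 2.

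**Figure D4:**
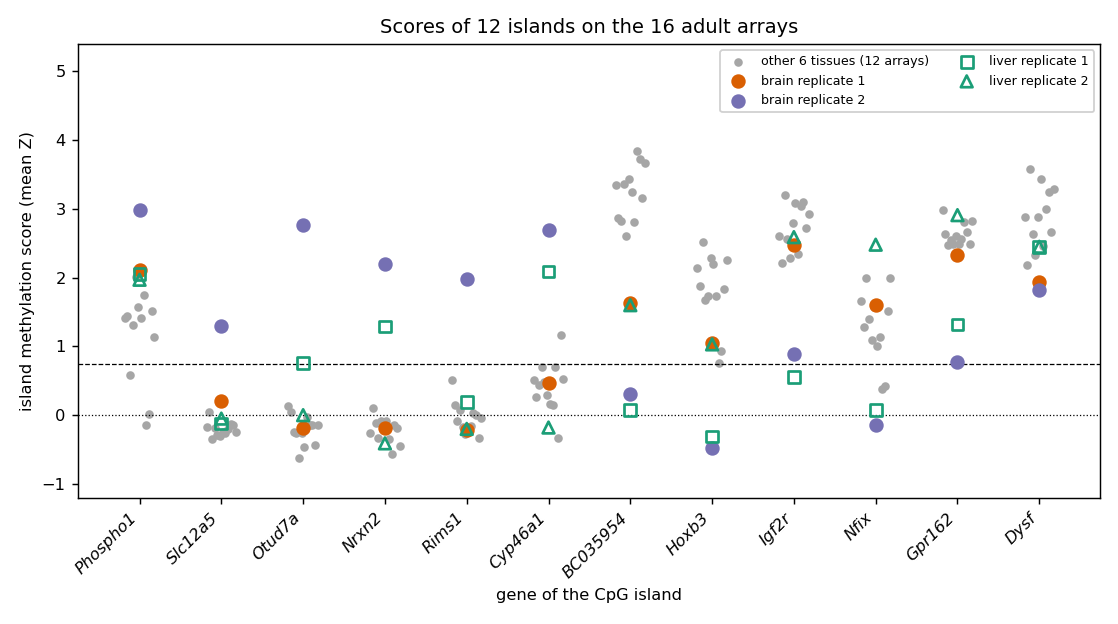
The island methylation score of 12 islands, chosen after their values were seen, is plotted for each of the 16 adult arrays, with filled circles for brain, open green symbols for liver and grey points for the 12 arrays of the other 6 tissues. The dashed line marks 0.75 and the dotted line 0. At Otud7a, Nrxn2 and Rims1 brain replicate 2 stands above all other arrays while brain replicate 1 lies among them, and at BC035954, Hoxb3, Igf2r and Nfix brain replicate 2 and liver replicate 1 lie below.

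Of the 36 islands higher on brain replicate 2, 3 are in the neuronal and synaptic list of 58, at Nrxn2 and Rims1. Nrxn2 encodes neurexin 2, a presynaptic adhesion protein, and its island at the gene start, on chromosome 19 from 6427887 to 6429039, had a score of 2.20 on brain replicate 2 and -0.19 on brain replicate 1. It was 1.29 on liver replicate 1 and ran from -0.56 to 0.10 on the 13 others. The difference without the slide was 2.44 ± 0.22 (limma, adjusted p = 0.000777). A further Nrxn2 island 103010 bases from the start gave 1.08, -0.09, 0.55 and -0.33 to 0.12 in the same order. Both Nrxn2 islands thus had the order of brain replicate 2, liver replicate 1 and then the rest.

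Rims1, a scaffold protein of the presynaptic active zone, had 1.98 on brain replicate 2 and -0.21 on brain replicate 1. The 14 other arrays ran up to 0.51, and liver replicate 1 with 0.19 was among them. The difference without the slide was 2.04 ± 0.19 (limma, adjusted p = 0.000777). Kcnip3, a calcium-binding partner of potassium channels, had 1.60 on brain replicate 2, -0.34 on brain replicate 1, 0.25 on liver replicate 1 and -0.65 to -0.10 on the 13 others. Slc12a5, already described, was called here too, with a difference of 1.49 ± 0.16 (limma, adjusted p = 0.0029). Cyp46a1, the enzyme that turns brain cholesterol into 24-hydroxycholesterol, had 2.69 on brain replicate 2 and 2.09 on liver replicate 1, against 0.47 on brain replicate 1 and -0.33 to 1.16 on the 13 others. Kcnip3, Slc12a5 and Cyp46a1 are not among the islands counted for the neuronal and synaptic list. They were picked after their values were seen, and other named islands are not described. With all labels, 3 of the 58 list islands were higher and 7 lower at an unadjusted p under 0.05 (limma).

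Of the neural transcription factor list, 1 of 152 islands was higher. It belongs to Pax6, a homeobox gene of eye and forebrain. This island lies 5087 bases and more inside the gene and had a score of 0.99 on brain replicate 2 and 1.55 on liver replicate 1. Brain replicate 1 had -1.03, and the 13 others ran from -1.12 to -0.29. Here liver replicate 1 was the highest array, and the difference without the slide was 1.67 ± 0.27 (limma, adjusted p = 0.0255). Barhl1, a homeobox gene that is not on the list, had 2.58 on brain replicate 2, -0.98 on brain replicate 1 and -0.76 to 0.58 on the 14 others. Lhx3, a gene of pituitary and motor neurons that is not on it either, had 1.29 on brain replicate 2, 0.02 on brain replicate 1 and -0.51 to 0.17 on the 14 others. Barhl1 and Lhx3 were likewise picked after their values were seen. With all labels, 1 of the 152 list islands was higher and 3 were lower at an unadjusted p under 0.05 (limma).

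The differences farthest above 0 were at Ccdc177 and at Otud7a, a deubiquitinase gene. Ccdc177 had 3.24 on brain replicate 2, 2.25 on liver replicate 1, 0.12 on brain replicate 1 and -0.28 to 0.59 on the 13 others, a difference of 3.02 ± 0.20 (limma, adjusted p = 0.000166). Otud7a had 2.77 on brain replicate 2, 0.76 on liver replicate 1, -0.18 on brain replicate 1 and -0.63 to 0.14 on the 13 others, a difference of 2.95 ± 0.21 (limma, adjusted p = 0.000166). At both islands most probes departed, which follows in part from choosing the islands by the mean of these probes. Neighbouring probes can share a pulled-down fragment, so counts of probes, here and below, are not independent. Brain replicate 2 was above all 14 other arrays on 17 of 17 probes at Ccdc177 and on 6 of 7 probes at Otud7a, and liver replicate 1 was above the 13 others on 15 and 6 of them.

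**Figure D5:**
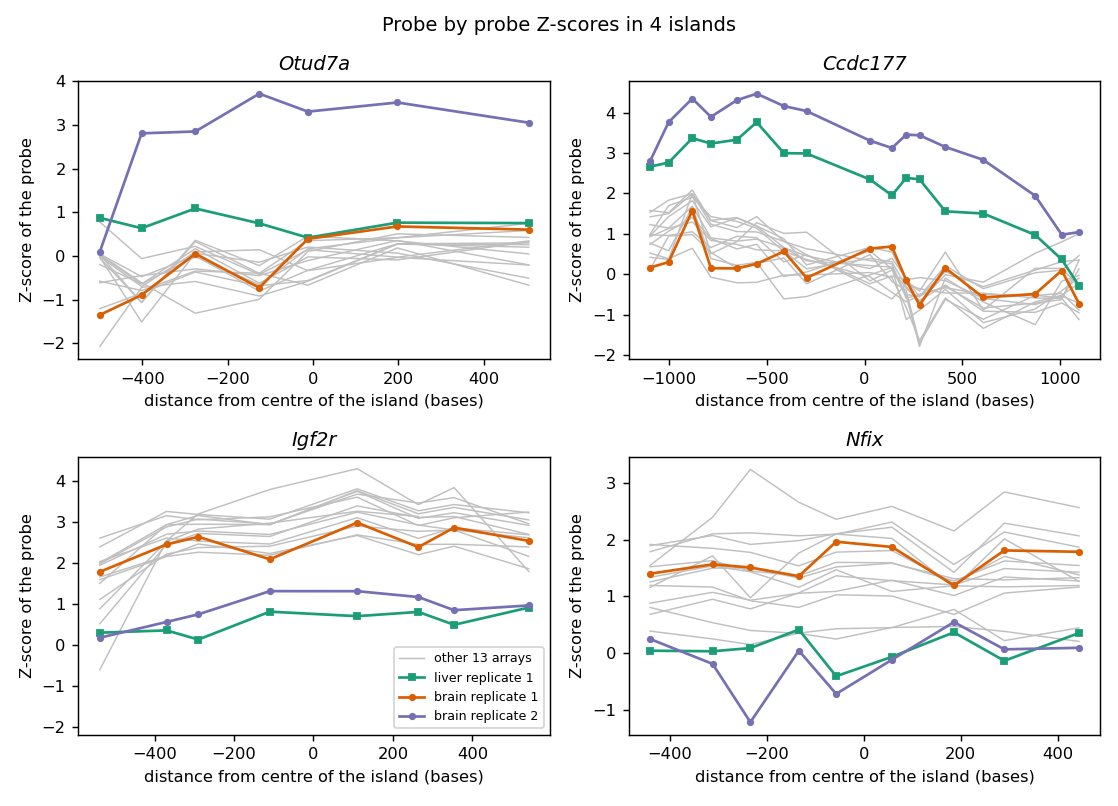
The Z-score of each probe (vertical axis) is plotted by its distance in bases from the centre of the island for Otud7a, Ccdc177, Igf2r and Nfix, with brain replicate 1 in orange, brain replicate 2 in purple, liver replicate 1 in green and the 13 other adult arrays in grey. At Ccdc177 brain replicate 2 is above the grey lines on 17 of 17 probes, and at Igf2r it is below them on 7 of 8, while brain replicate 1 runs mostly with the grey lines.

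An island above 0.75 on brain replicate 2 and below 0 on all 14 others was found at 4 places. Those with a gene name belong to Btaf1, a regulator of the TATA-binding protein, with 1.08 on brain replicate 2 against -0.83 to -0.03, and to the protease gene Prss23, with 0.98 against -0.40 to 0.00. The Prss23 difference without the slide turned to -0.08 with normexp. The same pattern for brain replicate 1 was found at 1 island, inside the beta 3 adrenergic receptor gene Adrb3, with 1.12 on brain replicate 1, -0.76 on brain replicate 2 and -1.22 to -0.43 on the 14 others. Each of these was high on a single brain array.

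The islands lower on brain replicate 2 included an imprinted gene and a Hox gene. The Igf2r island, on chromosome 17 from 12612307 to 12613442, spans the gene start, with probes from -395 to 686 bases relative to it. It had a score of 0.89 on brain replicate 2, 2.47 on brain replicate 1 and 0.56 on liver replicate 1, and on the 13 others the lowest was 2.21, the median 2.72 and the highest 3.21. The difference without the slide was -1.83 ± 0.30 (limma, adjusted p = 0.0277), and with all labels as given it was -0.90 with an adjusted p of 1. Brain replicate 2 stayed above 0.75 and liver replicate 1 did not, and each was below the 13 others on 7 of 8 probes. The printed promoter lies inside this island, and on its 3 probes too brain replicate 2 and liver replicate 1 were the lowest arrays.

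Hoxb3, a homeobox gene that sets identity along the body axis, had an island at its start with -0.48 on brain replicate 2 and -0.31 on liver replicate 1. Brain replicate 1 had 1.05, liver replicate 2 had 1.03, and the 13 others ran from 0.76 to 2.52. The difference without the slide was -2.19 ± 0.31 (limma, adjusted p = 0.0125). Hoxb3 and Fbxl8, an F-box protein gene, were the 2 islands below 0 on brain replicate 2 and above 0.75 on all 13 others. Nfix, a transcription factor of the nuclear factor I family, had -0.14 on brain replicate 2, 0.08 on liver replicate 1, 1.60 on brain replicate 1 and 0.38 to 2.48 on the 13 others, with brain replicate 2 below these on 8 of 9 probes.

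The difference farthest below 0 was -2.70 ± 0.33 at BC035954 (limma, adjusted p = 0.00399), with 0.31 on brain replicate 2, 0.07 on liver replicate 1, 1.63 on brain replicate 1 and 1.60 to 3.84 on the 13 others. Gpr162, an orphan receptor gene, had 0.78, 1.32, 2.33 and 2.47 to 2.98 in the same order. The other genes lower on brain replicate 2 were Rtkn, the hair cell gene Tmie, the adaptor of the TNF receptor Tradd, the caveolar gene Cavin1, the p53 inhibitor Ppp1r13l, the kinase Camkk2 and the exchange factor Arhgef40. Their differences without the slide ran from -1.75 at Rtkn to -1.06 at Arhgef40. Of these genes, Arhgef40 was the 1 island on which both brain arrays lay below all 14 others, with 2.06 and 1.52 against 2.24 to 2.81.

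The gene lists were described by counts. With all labels as given, limma called 0 islands in each of the 17 lists, as it did over all islands, and at an unadjusted p under 0.05 the highest counts were 10 lower of 134 for mesoderm and endoderm transcription factors, 7 lower of 66 for Hox genes and 7 lower of 58 for neuronal and synaptic genes, against 345 lower of 13279. Without the slide 3 of 58 neuronal and synaptic islands were higher, 1 of 152 neural transcription factor islands was higher (Pax6), 1 of 66 Hox islands was lower (Hoxb3) and 1 of 41 imprinted islands was lower (Igf2r). The other 13 lists had 0 calls, beside 36 higher and 12 lower over all islands. The median difference with all labels as given was -0.235 for Hox islands, -0.065 for neuronal and synaptic islands, 0.054 for imprinted islands and 0.008 over all islands.

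Without the scan day of brain replicate 1 the lists held more calls, as did all islands, of which 1.20% were higher and 1.58% lower in that fit of 10 arrays with 2 residual degrees of freedom from colon and pancreas. Of 152 neural transcription factor islands 10 were higher and 2 lower, among the higher ones Otx2, a gene of the anterior brain, with 0.68 on brain replicate 2, -0.60 on brain replicate 1 and -1.01 to -0.02 on the 14 others. Irx5 had 2.86 on brain replicate 2, but the 13 others reached 2.06. Hox islands were lower in that fit at Hoxb3, Hoxa5, Hoxd3, Hoxd4 and 5730596B20Rik, and none was higher. At Hoxd3 brain replicate 2 had -0.07 and lay within the 14 others, which ran from -0.53 to 2.72. At Hoxd4 it had -0.47, also within the 14 others, which ran from -0.58 to 2.92. Muscle replicate 1 had -0.22 and -0.38 at these islands, so low scores there are not particular to brain. Of 30 blood and immune islands 4 were lower, 2 of them at Runx1, which directs the formation of blood cells. One of these had 1.35 on brain replicate 1, 1.45 on brain replicate 2, 1.34 on liver replicate 1 and 1.78 to 3.74 on the 13 others. Of 85 axon guidance islands 3 were higher and 1 lower, of 25 germline islands 2 were higher, and of 41 imprinted islands 1 was higher and 2 were lower. Lists with 0 calls in that fit were those of ribosomal proteins, DNA methylation, clustered protocadherins and vessel cells.

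The labels were also set against lists of cell type genes, although methylation of an island is not expression. Of 58 neuronal and synaptic islands 12 were above 0.75 on brain replicate 1 and 15 on brain replicate 2, against 12 to 14 on the other adult arrays. Of 34 glial and myelin islands the counts were 4 and 5 against 3 to 5, of 30 blood and immune islands 9 and 7 against 6 to 12, of 16 vessel and meningeal islands 4 and 3 against 3 to 4, and of 45 epithelial islands 9 and 8 against 5 to 11. For the last 4 of these lists the brain counts lay within the range of the other tissues. Their part in the results above was not tested.

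The number of methylated Hox islands differed between adult arrays. Of 66 islands 4 were above 0.75 on brain replicate 1, 0 on brain replicate 2 and 0 on liver replicate 1. Over the 14 other arrays the count ran from 0 to 22 with a median of 8.5, and the highest was spleen replicate 1. Both brain arrays were thus below the median, and brain replicate 2 and liver replicate 1 were at the lowest count.

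The genes of the methylation system itself showed little. The list holds 21 islands, at the methyltransferase genes Dnmt1, Dnmt3a and Dnmt3b, the oxidase gene Tet2 and methyl-binding genes such as Mbd1 and Mbd2. None was called by limma in the fits with all labels, without brain replicate 1, without its slide or without its scan day, and with all labels 1 higher and 1 lower had an unadjusted p under 0.05. On brain replicate 1 the number above 0.75 was 1 and on brain replicate 2 it was 2, against 1 to 3 on the others.

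By position the array files place 8195 of the islands (61.7%) inside genes and 2501 (18.8%) in promoters, and 1749 (13.2%) have no position. The class inside genes takes in islands that span the gene start, such as those of Igf2r (-395 to 686 bases) and Nrxn2 (-106 to 1002 bases). The promoter class takes in islands wholly upstream, such as that of Adgrb2 (-4156 to -3635 bases). The counts by class thus do not tell whether islands lie at gene starts. Of the 36 islands higher without the slide, 24 were inside genes, 10 had no position and 1 was in a promoter. Of the 12 lower, 11 were inside genes and 0 in promoters. The islands on which both brain arrays lay above all others were inside genes in 74 cases and in promoters in 28 (1.12% of promoter islands, against 0.843% of all), and those below were inside genes in 65 and in promoters in 7 (0.28%, against 0.655% of all).

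The share of islands above 0.75 did not set brain apart. It was 10.6% ± 0.0586 (SD, n = 2) on the brain arrays, with 1397 and 1408 islands, and 11.2% ± 0.97 (SD, n = 14) on the others. The difference was -0.645 percentage points with a two-sided exact permutation p of 0.383, where the smallest p that the 120 choices of 2 from 16 arrays allow is 0.00833. Both brain arrays were above 0.75 at 1149 islands, which is 82.2% of those of replicate 1 and 81.6% of those of replicate 2. Replicate 1 alone was above at 248 and replicate 2 alone at 259. On all 16 adult arrays 982 islands were above 0.75 and 4445 were below 0.

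Against single tissues, in the same fit, brain differed from colon at 33 islands, all lower in brain (0.249%). It differed from pancreas at 5, of which 1 was higher (0.00753%) and 4 lower (0.0301%). Colon set against the other 7 tissues was itself called higher at 100 islands and lower at 7. Calls lower than colon are thus not particular to brain. Against kidney, liver, lung, muscle and spleen limma called 0 islands. At an unadjusted p under 0.05 there were 173 islands against liver, 292 against muscle, 423 against kidney and 573 against lung. There were 592 against pancreas, 636 against spleen and 1192 against colon. These comparisons share the brain arrays.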

How the data were processed

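The 16 adult arrays were taken from the scanner files the authors deposited. The authors scanned the arrays and read spot intensities with the Feature Extraction software of Agilent. As deposited by the authors, the log10 ratio of bound over input follows background subtraction and a linear dye normalization by that software. Control spots and spots flagged as outliers were left out, and a Z-score was taken over the probes of each array. The transformation by probe melting temperature that the methods describe was not made, as no probe sequences were used. The table deposited by the authors holds their own score per probe, a Z-score, and was used as an alternative.

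Islands were runs of at least 3 probes present on both grids (88737 probes) with gaps of at most 500 bases, without chromosomes X and Y. The files pair the islands with 10487 names, of which 8244 are symbols in RefSeq and 2021 more were matched as synonyms, so that 11556 islands have a gene name. Scores were fitted with limma 3.58.1 in R 4.3.3 (lmFit, eBayes; 1 mean per tissue), with Benjamini-Hochberg adjustment over all islands and calls at an adjusted p under 0.05. The share of islands above 0.75 was compared by an exact permutation test. Python 3.11.15 with numpy 2.4.6, pandas 2.3.3, scipy 1.17.1 and matplotlib 3.10.9 was used for the rest. The fit was tested on simulated data of 13279 islands with 200 changed, alike on the brain arrays kept and with independent noise. In the main comparison 76.5% were recovered at a size of 1 and 95.5% at 2, with 3.77% and 4.98% false calls, and without the slide of brain replicate 1 these were 29.0%, 88.5%, 4.92% and 5.35%.

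Input was well above background for 62.4% to 99.3% of the probes of an adult array, and precision is limited by the number of arrays. The comparison, the members and the 17 gene lists were chosen with earlier results of these data known. The naming rule took the 12 islands with the largest difference in each direction among islands that were called and on which both brain arrays lay beyond the 14 others, and up to 2 called islands per list and direction. None qualified. Normexp, planned on mean signals, was run on median signals with an offset of 50, since some files hold no mean signals. Alternatives covered the scale, background correction, deposited table, dim probes, island definition, thresholds, batch terms, tests and arrays.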

Additional observations from a re-analysis of the deposited data

Results flagged for a closer look

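Brain replicate 1 was scanned with 5 other adult arrays and brain replicate 2 with 2. At 822 islands replicate 1 was above all arrays of its day while replicate 2 was below all of its own, and at 916 islands the reverse held. Both were above at 1351 islands and both below at 841. Taken alone, replicate 1 was above its day at 3314 islands and below it at 2575. Replicate 2, set against 2 arrays, was above at 4998 and below at 4223. The counts of opposite position have to be read beside these. Across all 13279 islands, which are not independent, the difference of each brain array from the mean of its day correlated at r of 0.04. The islands were marked because the brain arrays lay on opposite sides of the arrays of their days, and this difference between the brain arrays was not tested.

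The X-linked islands lie outside the comparison. Their median score on brain replicate 1 was 1.37, above the male arrays (-0.05 to 0.11), and the label of that array is female.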

How the results depend on the processing

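The count of 0 called islands (limma, 566 at an unadjusted p under 0.05) was also 0 under every change of scale, background, island definition, batch term and test that was run, with 333 to 2123 islands at an unadjusted p under 0.05. The exceptions were all 34 arrays (1) and fits added after the data were seen. Those were the fits without the slide (48) and without the scan day of brain replicate 1 (370). At 340 of the 370 the brain array kept also lay beyond all other arrays of that fit. Against all other adult arrays, kept or not, it lay beyond them at 118 of the 160 higher and 125 of the 210 lower islands. Leaving out single arrays gave 0 to 21, the 21 without brain replicate 1 and 0 without any other array.

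With the replicate number as a block the count was 0 (608 at an unadjusted p under 0.05), and without the slide it was 34. For brain, kidney, liver, lung, muscle and spleen, every replicate 1 was scanned on the same day with the larger grid. Every replicate 2 of these tissues was scanned on another day with the smaller grid. The number thus goes with scan day and grid there, but not for colon and pancreas. Between tissues, r of the deviations of replicate 1 ran from -0.32 to 0.47 over 28 pairs, with 11 over 0.1.

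The untested counts of islands with both brain arrays above and below all others moved most. They were 26 and 154 with log2 ratios centred on the median, a scaling that shifts the median difference of all islands to -0.106, 1353 and 217 with normexp, and 49 and 132 with the deposited table. Above, the count was 179 with the median of the probes, and below it was 35 with bright probes and 37 with at least 5 probes. Wherever 1 brain array was left, only that array had to lie beyond the others, so such counts cannot be set beside those of both arrays. For brain replicate 2 they were 1386 and 1013 without the slide, and 1573 and 1301 without the scan day of brain replicate 1. For brain replicate 1 they were 956 and 1295 without the scan day of replicate 2. With single arrays left out the counts ran from 115 to 1266 and from 89 to 1251. The highest rested on 1 brain array, without brain replicate 1 (1266 and 832) or without brain replicate 2 (909 and 1251). With both brain arrays kept, the count below ran from 89 to 141, highest without liver replicate 1, and leaving out an array can only raise it.

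Without the slide, the 48 calls became 23 with log2 ratios (22 higher, 1 lower, 95.7% higher), and normexp gave 11 higher and 32 lower (25.6%), the deposited scores gave 25 and 42 of 5711 islands (37.3%) and bright probes 29 and 20 (59.2%). With single arrays left out the calls ran from 35 to 60, those higher from 27 to 39, and those lower from 7 (without colon replicate 1, pancreas replicate 1 or pancreas replicate 2) to 22 (without kidney replicate 2). The difference in the share above 0.75 ran from -0.777 to -0.554 with single arrays left out. The cause of these shifts was not tested.

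Of 734 values of the islands described with all labels, 717 kept their direction and side of the threshold, 16 passed it and Prdm13 reversed, to -0.05 with the deposited table. Of 825 without the slide, 710 kept them, 114 fell short and Prss23 reversed, to -0.08 with normexp. None of the islands described with all labels was called in the main fit, so for them keeping the side of the threshold means staying uncalled. Tissue labels, 2 arrays a tissue and dim inputs limit what these arrays can show.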
